A study of Mus musculus with 6 samples.

Results

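The genes examined are those of the semaphorin guidance system: the semaphorin ligands and their plexin and neuropilin receptors. Members were all genes whose annotated symbol starts with Sema, Plxna, Plxnc or Plxnd, or is Plxnb1, Plxnb2, Nrp1 or Nrp2. This gave 31 of 18193 genes with a probe set: 20 semaphorins, 10 receptors and Plxna4os1, a noncoding RNA of the Plxna4 locus that the symbol rule also takes in. The members had 77 probe sets among them, and each gene was represented by the one with the highest mean over the arrays. Sema3f, Sema4a and Sema4f are exceptions. Their highest set is marked for possible cross-binding, and the next one was used. Levels are log2 units of normalised hybridisation signal, so that 1 unit is a doubling. They can be compared between arrays for 1 gene but not between genes.

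RNA came from 3 auditory brainstem nuclei: the ventral cochlear nucleus (VCN), where auditory nerve fibres end, and 2 nuclei that it projects to, the trapezoid body's medial nucleus (MNTB) and the lateral superior olive (LSO). All mice were male C57BL/6J without a stated treatment or genetic change. At postnatal day 3 (P3), before hearing onset, each nucleus was a pool of 6 mice, and at postnatal day 14 (P14), shortly after it, a pool of 3. Each of the 6 combinations of nucleus and age was measured on 1 Affymetrix mouse expression array.

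Because no combination was repeated, the age difference of a gene was tested by how well it repeated over the 3 nuclei, and a difference between nuclei by how well it repeated over the 2 ages. The spread of a gene came from 1 fit of all 6 arrays, so a test between 2 nuclei also depends on the third. The p-values and standard errors measure repetition of this kind and not the spread between animals. In both, limma moderates the spread of a gene toward a value fitted over all tested genes. Array medians lay between 6.27 and 6.31 log2 units. For Gapdh, the excess of 3' over 5' signal, which tracks RNA quality, ran from 1.06 to 1.11 at P14 and from 1.21 to 1.41 at P3. Both it and the number of mice per pool went with age and cannot be told apart from age. Markers went with the labelled nuclei in part. The summed level of 3 glycinergic genes was highest in MNTB at both ages (13.54 and 14.08, against 12.36 to 13.55 in the other nuclei). Slc6a5 and Slc32a1 were highest there, but Glra1 was not. At P3 Glra1 was at 9.71 in MNTB, 10.11 in LSO and 10.62 in VCN. The vesicular glutamate transporter gene Slc17a6 was highest in VCN at both ages (11.06 and 11.04). A second such gene, Slc17a7, was at 8.50 in VCN at P14 but at 3.93 to 4.83 on the other 5 arrays, VCN at P3 among them. The summed level of choroid plexus genes was 12.61 on the VCN array of P14 and 7.28 to 7.59 on the others. That sum was nearly all Ttr, at 12.58 on this array, with Folr1 at 6.26 and Kl at 4.98.

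Semaphorins are secreted, membrane-spanning or lipid-anchored proteins that steer growing axons and later act on synapses, myelinating cells and blood vessels. Plexins are their signalling receptors, whose intracellular part acts on small GTPases and the cytoskeleton. Most secreted class 3 semaphorins cannot bind a plexin directly and need neuropilin 1 or 2 as the ligand-binding partner, whereas the membrane-bound classes bind plexins without one.

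Between P3 and P14 the receptors and ligands gave different counts. Of 10 receptor genes tested, 5 fell and 0 rose, and 0 had an unadjusted p under 0.05 for a rise in limma. Without an LSO array 1 receptor gene, Nrp2, rose and 3 fell. The symbol rule leaves out Plxnb3, a further plexin gene, which rose by 1.94 (limma adjusted p = 0.00117). Of 19 semaphorin genes tested, 7 rose and 4 fell. Over all 12958 genes tested, 23.4% rose and 17.7% fell, 41.0% in all. The balance of rises over falls depended on the scaling: with quantile normalisation 6 ligands rose and 6 fell, and over all genes 2681 rose and 2599 fell. Without an MNTB array 4 ligands rose and 1 fell. For the 29 members tested the share past the test was 55.2%, with 16 of them called. The median age difference was -0.48 log2 units for receptors, 0.13 for ligands and 0.03 for all tested genes. Whether receptors and ligands differ as groups was not tested. In these bulk samples fewer cells of a type and less RNA per cell cannot be told apart.

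**Figure D1:**
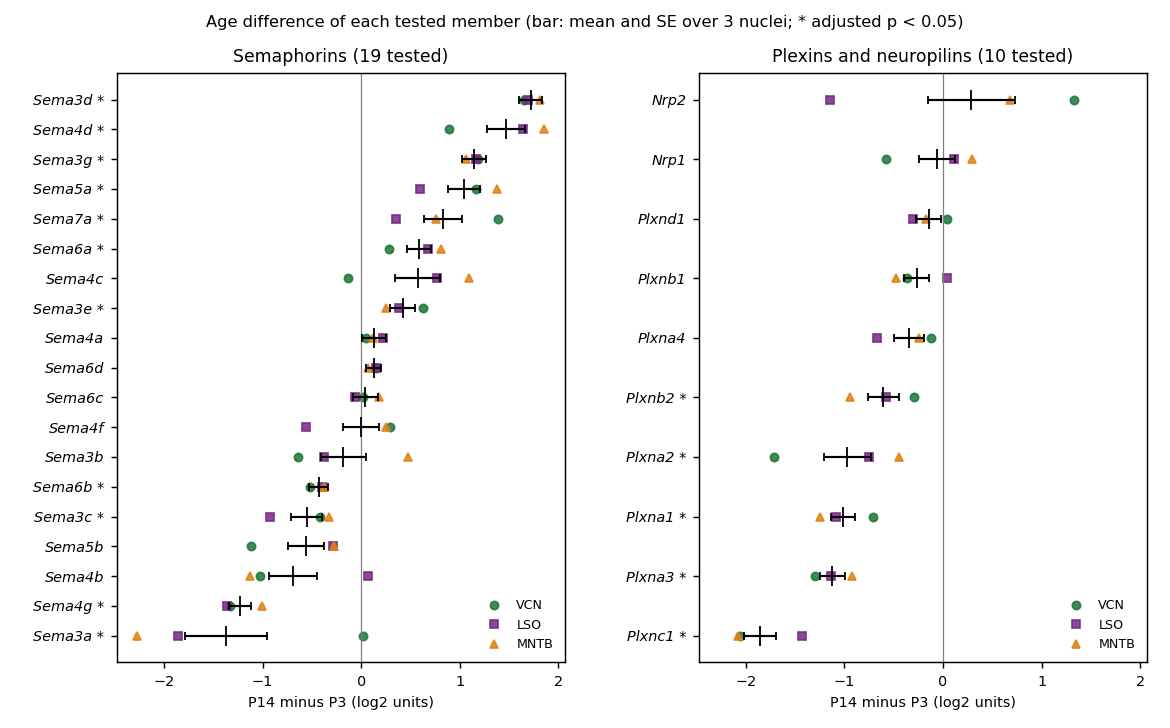
P14 minus P3 in log2 units for each tested member, semaphorins on the left and receptors on the right, with 1 symbol per nucleus. A black bar gives the mean over 3 nuclei and its standard error as moderated by limma. Plxnc1 is lowest among receptors at -1.86 and Sema3d highest among ligands at 1.72, while the symbols of Nrp2 and Sema3a lie far apart.

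The receptor that fell furthest was Plxnc1, which encodes the plexin that binds the semaphorin 7A protein. Its level was 9.06, 8.70 and 8.80 in VCN, LSO and MNTB at P3 and 6.9999, 7.26 and 6.72 at P14. Every P3 array lay above every P14 array. Plxnc1 fell by 1.86 ± 0.16 log2 units (standard error, 3 nuclei, limma adjusted p = 0.000831), a 3.62-fold lower level. The 5 of its 6 probe sets with a mean above the filter gave differences from -2.37 to -1.66. The ligand gene moved the other way. Sema7a, which encodes a lipid-anchored semaphorin, was at 9.91, 10.08 and 9.57 at P3 and at 11.30, 10.44 and 10.32 at P14, with no overlap between ages. It rose by 0.83 ± 0.19 (adjusted p = 0.0170), by 1.39 in VCN, 0.36 in LSO and 0.76 in MNTB. Without an MNTB array its difference was 0.87 and did not pass (adjusted p up to 0.0598). The VCN array of P14, where Sema7a was highest, is also the one with the high level of the choroid plexus gene Ttr. Without that array Sema7a differed by 0.56.

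Of 4 plexin A genes, whose proteins signal for class 3 and class 6 semaphorins, 3 fell. Plxna3 was at 7.79, 7.74 and 7.61 in VCN, LSO and MNTB at P3 and at 6.49, 6.60 and 6.68 at P14. The decline was similar in the 3 nuclei, and Plxna3 fell by 1.12 ± 0.13 (adjusted p = 0.00180). Plxna1 was at 10.28, 10.27 and 10.15 at P3 and at 9.57, 9.18 and 8.90 at P14. The ages did not overlap, and Plxna1 fell by 1.02 ± 0.12 (adjusted p = 0.00218). It was at -0.66 with the median over probe sets.

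Plxna2 varied by nucleus as well as age. It stood at 10.07, 9.68 and 8.64 at P3 and at 8.36, 8.93 and 8.20 at P14, so that MNTB at P3 lay below LSO at P14. It fell by 0.97 ± 0.24 (adjusted p = 0.0223), with differences of -1.71 in VCN, -0.75 in LSO and -0.44 in MNTB. Without an LSO array its difference was -1.08 (adjusted p up to 0.0625), and without nucleus in the model the adjusted p was 0.0797. Plxna4 differed by -0.35 ± 0.15 and did not pass (adjusted p = 0.116), although taking the median over its probe sets gave -0.45 (adjusted p = 0.0251). The RNA Plxna4os1 was dim, between 4.07 and 5.15, and was not tested.

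Of the B-type and D-type plexin genes among the members, 1 of 3 fell. Plxnb2, a receptor for class 4 semaphorins, was at 7.56, 7.58 and 7.76 at P3 and at 7.26, 6.996 and 6.83 at P14 in VCN, LSO and MNTB. The ages did not overlap, and it fell by 0.61 ± 0.16 (adjusted p = 0.0251). The call was lost without an LSO array (-0.62, adjusted p up to 0.0913) or an MNTB array (-0.44, adjusted p up to 0.133). Plxnb1, the receptor for semaphorin 4D, differed by -0.27 ± 0.13 (adjusted p = 0.148). Plxnd1, which binds semaphorin 3E without a neuropilin, differed by -0.15 ± 0.13 (adjusted p = 0.399). Neither showed a shift beyond the disagreement between nuclei at this precision.

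Beside these falls, all 6 markers of immature neurons fell. Their summed level was 14.34 to 14.49 at P3 and 13.29 to 13.61 at P14. Their part in the plexin result was not tested.

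Among the secreted class 3 ligands, 3 genes rose and 2 fell of 6 tested. By the probe set that represents each gene, Sema3d rose most among the members. It was at 5.49, 5.85 and 5.88 in VCN, LSO and MNTB at P3 and at 7.14, 7.54 and 7.70 at P14. The rise was nearly equal in the 3 nuclei, at 1.65, 1.69 and 1.81, and the mean was 1.72 ± 0.12 (adjusted p = 0.000479), a 3.29-fold higher level. Its second probe set gave 2.48. With the median over probe sets the order turned, at 2.10 for Sema3d and 3.07 for Sema4d. Sema3g, a ligand that acts through neuropilin 2 and is known from blood vessels, was at 5.34, 6.09 and 5.73 at P3 and at 6.53, 7.26 and 6.80 at P14. It rose by 1.14 ± 0.12 (adjusted p = 0.00133), again without overlap. LSO was highest for Sema3g at both ages, but its difference from VCN did not pass (VCN minus LSO -0.73 ± 0.15, adjusted p = 0.164).

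Sema3e rose by a smaller amount. It was at 7.29, 7.46 and 7.46 at P3 and at 7.91, 7.85 and 7.70 at P14, a difference of 0.42 ± 0.13 (adjusted p = 0.0425). The ages did not overlap, but in each of the 6 fits without 1 array the call was lost (0.32 to 0.51, adjusted p up to 0.128), as it was without the filter (adjusted p = 0.0573) and with quantile normalisation (0.35, adjusted p = 0.0671).

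Vessel and meningeal genes were higher at P14 as well. Of 7 endothelial markers 6 rose, with a summed level of 10.94 to 11.29 at P3 and 11.82 to 11.93 at P14, and of 5 tested markers of meninges and fibroblasts all 5 rose, with a summed level of 10.26 to 10.36 and 11.34 to 12.03. Their part in the rises of Sema3d, Sema3e and Sema3g was not tested.

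Sema3a, the classic growth cone collapsing ligand of neuropilin 1 and plexin A, differed by nucleus. At P3 it stood at 8.78 in VCN and at 10.33 in both LSO and MNTB, and at P14 at 8.80, 8.48 and 8.07. The difference was -1.85 in LSO and -2.27 in MNTB, against 0.02 in VCN. At P14 the nuclei lay within a narrower band than at P3. Over the 3 nuclei Sema3a fell by 1.37 ± 0.42 (adjusted p = 0.0437). That call did not hold without an LSO array (-1.13, adjusted p up to 0.180) or an MNTB array (-0.92, adjusted p up to 0.179), without the filter (adjusted p = 0.0650), using the median over its probe sets (-1.04, adjusted p = 0.0723) or without an intensity trend (adjusted p = 0.0607). The age change in VCN exceeded the mean of the other 2 nuclei by 2.08 ± 0.25. In a test added after the values were seen, that difference did not pass (adjusted p = 0.0577 over 12958 genes). The VCN side of this test is a single pair of arrays. The error of the test therefore rests on how far LSO and MNTB disagree, moderated by a spread fitted over all tested genes.

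Sema3b, at 5.53 to 6.28, differed by -0.18 ± 0.23 (adjusted p = 0.555). Sema3f, a ligand of neuropilin 2, was at 5.004 to 5.54 and fell below the filter of 5.57. A second Sema3f probe set that may bind related transcripts was at 6.56 to 6.79, with an age difference of -0.03.

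**Figure D2:**
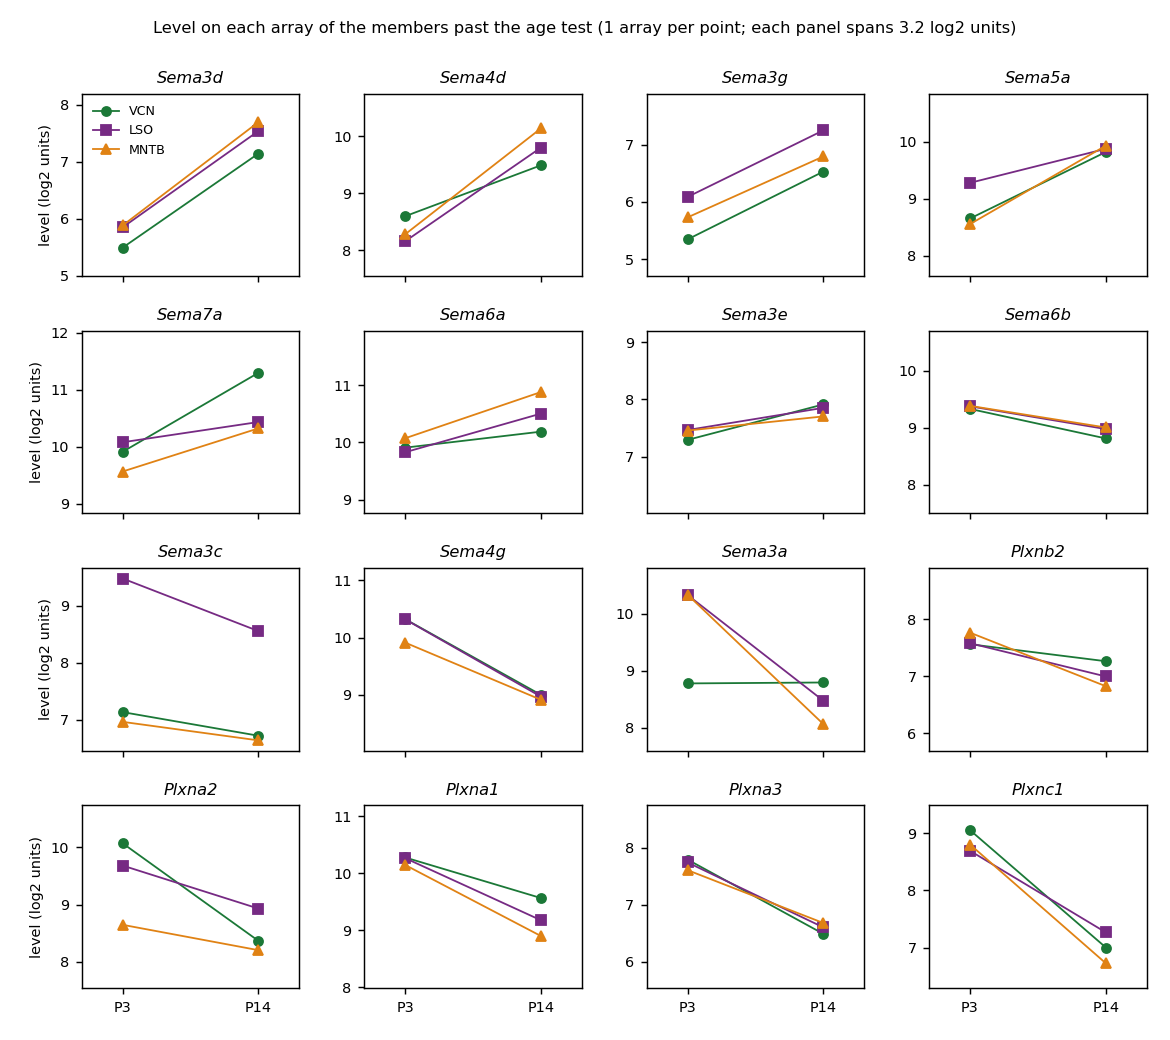
Level in log2 units at P3 and P14 on each array for the 16 members past the age test, ligands first, with 1 line per nucleus and the same span in every panel. Lines of Sema3d and Plxna3 run nearly parallel, whereas Sema3a is flat in VCN (8.78 and 8.80) and Sema3c is set apart by LSO.

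Sema3c was the one member that passed a test between nuclei. This gene encodes a secreted semaphorin that binds both neuropilins. At P3 it was at 9.48 in LSO, 7.14 in VCN and 6.97 in MNTB, and at P14 at 8.56 in LSO, 6.72 in VCN and 6.64 in MNTB. LSO lay above the other nuclei at each age, and VCN and MNTB differed little. MNTB minus LSO was -2.21 ± 0.19 (standard error, 2 ages, limma adjusted p = 0.0230), so that LSO was 4.64-fold higher. VCN minus LSO was -2.09 ± 0.19 (adjusted p = 0.0173), a 4.25-fold higher level in LSO. Over all genes 0.162% passed for MNTB minus LSO and 0.370% for VCN minus LSO, and 1 of 29 members passed in each. The second Sema3c probe set gave LSO an excess of 1.99 over the mean of the other nuclei at P3 and 1.38 at P14, against 2.43 and 1.87 with the first.

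The direction of the Sema3c difference was the same in every fit with 1 array left out, but the adjusted p rose. Without the LSO array of P3 the differences were -1.94 (adjusted p = 0.217) and -1.81 (adjusted p = 0.190), and without that of P14 -2.49 (adjusted p = 0.105) and -2.36 (adjusted p = 0.0667). MNTB minus LSO also missed the threshold without an MNTB array (adjusted p up to 0.170). Sema3c fell with age by 0.55 ± 0.15 (adjusted p = 0.0330). That was not called without an LSO array (-0.37, adjusted p up to 0.147), without an MNTB array (-0.67, adjusted p up to 0.0622) or without nucleus in the model (adjusted p = 0.605). Of the marker lists, that of Schwann cells also lay higher in LSO, by 1.12 at P3 and 0.96 at P14, with Pmp22 as its only measured gene. The part of that in the Sema3c result was not tested.

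Nrp2, which encodes a receptor for Sema3c, Sema3f and Sema3g proteins, also stood highest in LSO at P3. It was at 10.70 in LSO against 7.96 in VCN and 8.14 in MNTB at P3, and at 9.56, 9.29 and 8.82 at P14. The LSO excess over the mean of the other nuclei was 2.66 at P3 and 0.50 at P14. From P3 to P14 the level dropped by 1.15 in LSO, while it was 1.33 higher in VCN and 0.68 higher in MNTB. The mean age difference of 0.29 ± 0.44 therefore did not pass (adjusted p = 0.631), nor did MNTB minus LSO (-1.65 ± 0.54, adjusted p = 0.627). It was the 1 member with opposite changes of at least 0.5 in 2 nuclei, a pattern found in 0.664% of all tested genes. The age change in LSO minus the mean of the other nuclei was -2.15 ± 0.34. In the test added after the values were seen, that difference did not pass over all genes (adjusted p = 0.999), and of 12958 genes 0 passed in it, with 400 at an unadjusted p under 0.05.

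The 3 Nrp2 probe sets above the filter agreed on LSO but not on the other nuclei. In the other 2 the LSO excess was 1.68 and 3.14 at P3 and 0.39 and 0.70 at P14, and the age difference in LSO was -1.52 and -1.28. In VCN the age difference was 1.33 and 1.56 in 2 of the 3 and -0.18 in the third, and in MNTB it was 0.68, 0.75 and -0.28. Nrp1, which encodes the main receptor for semaphorin 3A and also binds VEGF, showed no such pattern. It was at 9.23, 8.77 and 8.12 in VCN, LSO and MNTB at P3 and at 8.65, 8.88 and 8.42 at P14, and differed by -0.06 ± 0.18 (adjusted p = 0.822).

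**Figure D3:**
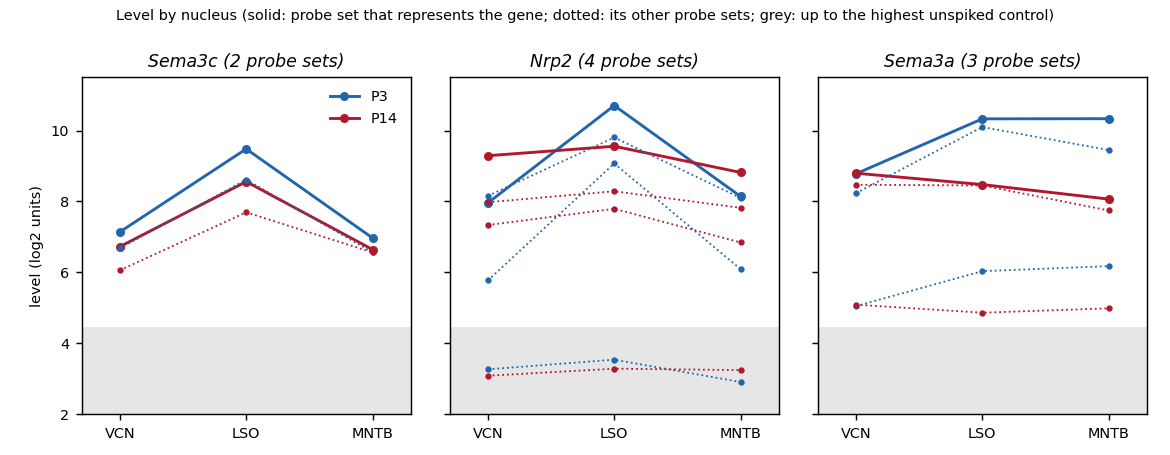
Level in log2 units in VCN, LSO and MNTB at P3 (blue) and P14 (red) for every probe set of Sema3c, Nrp2 and Sema3a, with the representing probe set as a solid line and the range of unspiked control sets in grey. Sema3c peaks in LSO at both ages, Nrp2 peaks in LSO at P3 (10.70), and Sema3a is lower in VCN than elsewhere at P3.

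The start regions of 4 genes are shown because they pair the uniform risers, Sema3d and Sema3g, with the ligand and receptor highest in LSO, Sema3c and Nrp2. Each is the 250 bases before a RefSeq transcript start in build GRCm38.p6, all on the plus strand, read 5′ to 3′. Capitals mark matches on either strand to 4 motifs. The GC box was searched as GGGCGG. The E-box was searched as CACGTG. The TATA box was searched as TATAAA, and the CCAAT box by the letters of its name. Each region held 1 kind of motif, and 2 neighbouring GC boxes of Nrp2 overlap by 1 base.
Sema3d, chr5:12382916-12383165: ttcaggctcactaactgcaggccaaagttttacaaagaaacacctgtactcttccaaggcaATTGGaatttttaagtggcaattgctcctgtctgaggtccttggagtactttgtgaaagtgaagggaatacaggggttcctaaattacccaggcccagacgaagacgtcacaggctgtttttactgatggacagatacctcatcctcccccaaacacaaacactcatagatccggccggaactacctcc
Sema3g, chr14:31217623-31217872: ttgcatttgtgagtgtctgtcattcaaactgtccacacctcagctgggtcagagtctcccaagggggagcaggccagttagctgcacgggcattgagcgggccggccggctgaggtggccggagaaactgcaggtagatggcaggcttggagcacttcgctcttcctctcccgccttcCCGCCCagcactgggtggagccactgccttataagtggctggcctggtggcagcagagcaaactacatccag
Sema3c, chr5:17574566-17574815: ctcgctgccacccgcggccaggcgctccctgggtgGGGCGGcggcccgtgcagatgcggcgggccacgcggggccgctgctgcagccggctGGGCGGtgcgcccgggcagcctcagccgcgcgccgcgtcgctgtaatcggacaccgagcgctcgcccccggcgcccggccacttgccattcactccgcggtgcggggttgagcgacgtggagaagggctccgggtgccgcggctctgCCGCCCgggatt
Nrp2, chr1:62703067-62703316: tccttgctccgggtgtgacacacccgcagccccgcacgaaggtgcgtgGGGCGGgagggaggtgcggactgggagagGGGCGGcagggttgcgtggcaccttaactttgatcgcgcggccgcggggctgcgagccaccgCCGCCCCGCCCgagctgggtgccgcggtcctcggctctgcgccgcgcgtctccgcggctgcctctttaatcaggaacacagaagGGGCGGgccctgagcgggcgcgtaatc

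The Sema3c and Nrp2 regions were rich in CG pairs, with 39 and 32, and held 3 and 5 GC boxes. The Sema3d and Sema3g regions had 4 and 8 CG pairs, a single CCAAT box 189 bases before the start of Sema3d and a single GC box 72 bases before that of Sema3g. Members on a set-aside chromosome were not counted, whereas the comparison shares below took in every chromosome of the source. The count held 36 start regions for 25 of the 31 members. A GC box was present in 75% of them, against 42.6% of 21262 start regions of protein-coding genes and 32.7% of all 32851. A CCAAT box was found in 19.4%, against 35.4% and 33.8%, and an E-box in 5.56%, against 6.63% and 6.02%. No TATA box letters were found in the 36, against 11.6% and 12.4%. These matches describe letters in a window and not bound sites.

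The class 3 genes that neighbour each other on chromosome 5 did not share an age pattern. In the RefSeq order Sema3d, Sema3a, Sema3e and Sema3c follow each other on chromosome 5, with 0, 3 and 15 protein-coding genes between them. Their age differences in that order were 1.72, -1.37, 0.42 and -0.55. On chromosome 9, Sema3b and Sema3f lie with 3 protein-coding genes between them. Their differences were -0.18, which did not pass, and -0.23, which was not tested.

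Of the 6 class 4 semaphorin genes, whose proteins span the membrane and signal mostly through B-type plexins, 1 rose and 1 fell. Sema4d was at 8.60, 8.16 and 8.28 in VCN, LSO and MNTB at P3 and at 9.49, 9.80 and 10.14 at P14. It rose by 1.46 ± 0.19 (adjusted p = 0.00275), by 0.89 in VCN and by 1.64 and 1.86 in LSO and MNTB. VCN was the highest of the nuclei at P3 and the lowest at P14. Sema4d is known to be made by oligodendrocytes, and all 7 measured markers of mature oligodendrocytes rose. Their summed level was 13.58 in VCN and 11.93 and 12.42 in LSO and MNTB at P3, and 15.34 to 15.51 at P14. Their part in the Sema4d rise was not tested. Its 3 probe sets all pointed up, at 0.61, 1.46 and 3.36, so that the size of the rise depends on the probe set.

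Sema4g, which encodes a ligand of plexin B2, moved the opposite way. It was at 10.32, 10.32 and 9.91 at P3 and at 8.99, 8.96 and 8.91 at P14. The groups did not overlap, and it fell by 1.23 ± 0.11 (adjusted p = 0.000838), a 2.34-fold lower level.

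The other class 4 genes did not pass. Sema4b was at 9.13, 8.58 and 9.19 in VCN, LSO and MNTB at P3 and at 8.11, 8.65 and 8.07 at P14, with differences of -1.02 in VCN, 0.07 in LSO and -1.12 in MNTB. Its mean difference was -0.69 ± 0.24 (adjusted p = 0.0654), and it passed without an LSO array (-1.07, adjusted p up to 0.00903), using the median over its probe sets (-0.77, adjusted p = 0.0103), with quantile normalisation (-0.77, adjusted p = 0.0450) and without nucleus in the model (adjusted p = 0.0440). Sema4c, another plexin B2 ligand gene, was at 10.11, 9.41 and 9.24 at P3 and at 9.98, 10.17 and 10.33 at P14, so that the order of the nuclei turned over. Its difference was 0.58 ± 0.23 (adjusted p = 0.0918), and it passed without a VCN array (0.93, adjusted p up to 0.00331). Without an MNTB array it was 0.32 (adjusted p up to 0.365). Sema4f was at 10.48 in LSO at P3 against 9.44 in VCN and 9.51 in MNTB, and between 9.73 and 9.92 at P14, with a mean difference of 0.00 ± 0.18 (adjusted p = 0.989). Sema4a differed by 0.13 ± 0.12 (adjusted p = 0.418). For both of these a brighter probe set that may bind related transcripts gave 0.09 and 0.14.

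The 2 class 5 genes, whose membrane proteins carry thrombospondin repeats, went apart. Sema5a was at 8.65, 9.28 and 8.55 in VCN, LSO and MNTB at P3 and at 9.82, 9.87 and 9.93 at P14. It rose by 1.05 ± 0.16 (adjusted p = 0.00456), and the nuclei were closer to each other at P14 than at P3. Sema5b was at 10.15, 10.29 and 10.85 at P3 and at 9.04, 10.004 and 10.57 at P14, highest in MNTB and lowest in VCN at both ages. MNTB minus VCN was 1.11 ± 0.22 (adjusted p = 0.144) and did not pass, except without the VCN array of P3. Its age difference of -0.56 ± 0.18 fell just short (adjusted p = 0.0508), and passed with the stricter filter (adjusted p = 0.0413), with quantile normalisation (-0.60, adjusted p = 0.0401) and with the cross-binding probe sets kept (adjusted p = 0.0499). Without a VCN array it was -0.28 (adjusted p up to 0.0691), and without nucleus in the model the adjusted p was 0.284.

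Of 4 class 6 genes, whose membrane proteins are ligands of A-type plexins, 1 rose and 1 fell. Sema6a, which encodes a ligand of plexins A2 and A4, was at 9.91, 9.83 and 10.07 at P3 and at 10.19, 10.51 and 10.88 at P14. It rose by 0.59 ± 0.12 (adjusted p = 0.0117), least in VCN at 0.28, and lost the call without an LSO array (0.55, adjusted p = 0.0615) or an MNTB array (0.48, adjusted p up to 0.0710). Sema6b was at 9.33, 9.37 and 9.38 at P3 and at 8.81, 8.97 and 9.002 at P14. It fell by 0.43 ± 0.10 (adjusted p = 0.0150), not called without an LSO array (-0.45, adjusted p up to 0.0630) or an MNTB array (-0.46, adjusted p up to 0.0709). The ages did not overlap for either gene. Sema6c and Sema6d differed by 0.04 ± 0.12 and 0.13 ± 0.08 (adjusted p = 0.805 and 0.259), and each spanned less than 0.3 units over the 6 arrays.

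Of the 16 members past the age test, 13 had no overlap between ages, the exceptions being Plxna2, Sema3a and Sema3c. Over all tested genes 53.6% had no overlap, and 13 of 29 tested members did. In all 6 fits without 1 array 8 of the 16 passed: Plxna1, Plxna3, Plxnc1, Sema3d, Sema3g, Sema4d, Sema4g and Sema5a. Over all tested genes each of these fits called between 3142 and 4710, against 5317 with every array. For 12 of the 16, at least 2 probe sets lay above the filter, and in all 12 these pointed in 1 direction. Among all members with at least 2 such probe sets, passed or not, that was so for 19 of 22. Only Sema3a among the 16 had a nucleus with the opposite sign, by 0.02.

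**Figure D4:**
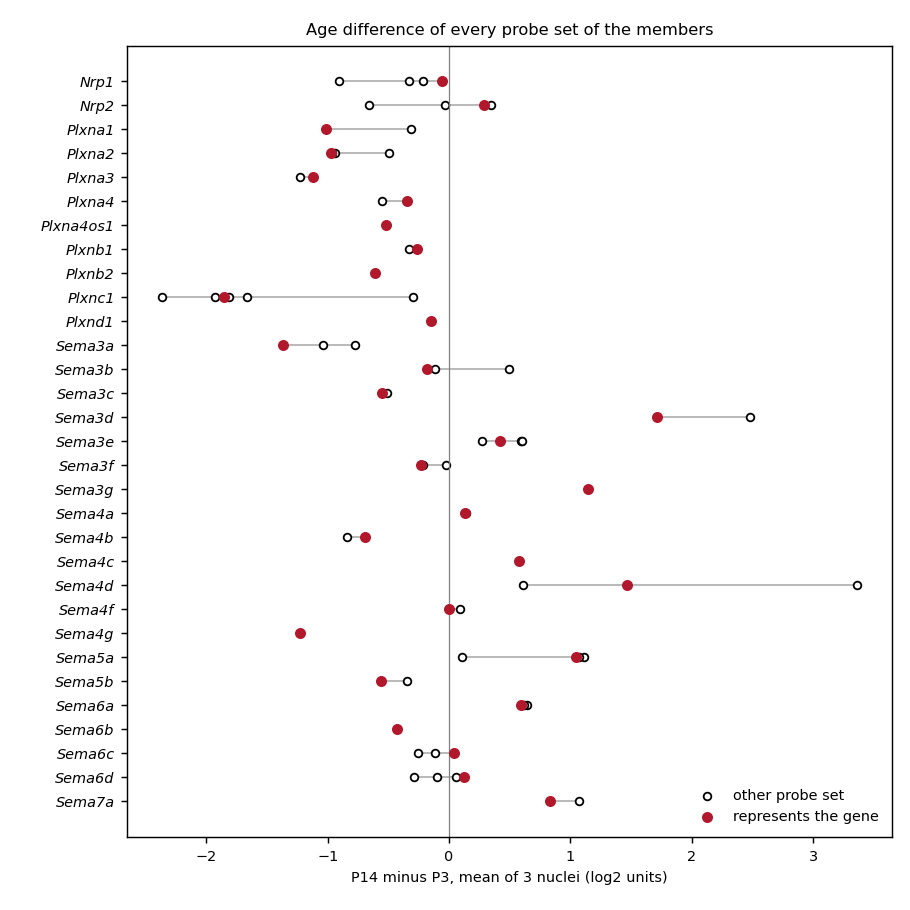
P14 minus P3 in log2 units, as the mean of 3 nuclei, for all 77 probe sets of the 31 members, with the probe set that represents each gene in red. Open circles show how far other probe sets of the same gene lie from it, widest for Sema4d (0.61 to 3.36).

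MNTB minus VCN gave no call: 0 of 29 members passed in limma, against 0.602% of all genes. At an unadjusted p under 0.05 there were 7 of 29 members and 1235 of 12958 genes. Leaving out the VCN array of P3 brought 2 members past it, Sema5b and Sema7a, and leaving out that of P14 brought Plxna2 and Sema3a.

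Partners of the pathway outside the symbol rule were described from a list of 50 genes, of which 46 were tested. Of these 11 rose and 16 fell, 58.7% in all against 41.0% of all tested genes, with a median of -0.05 against 0.03. The risers were led by Plxnb3, which encodes the third B-type plexin and is known from oligodendrocytes. It was at 7.55, 6.82 and 7.62 in VCN, LSO and MNTB at P3 and at 9.04, 9.30 and 9.48 at P14. It rose by 1.94 ± 0.20 (adjusted p = 0.00117), while 5 of the 8 plexin genes among the members fell. The small GTPase genes Rap1a and Rras, targets of the plexin GAP domain, rose by 1.37 ± 0.13 and 1.24 ± 0.12. Tyrobp, the microglial adaptor gene that works with plexin A1, rose by 0.77 ± 0.25 (adjusted p = 0.0498), a call lost without the filter (adjusted p = 0.0727), without an intensity trend (adjusted p = 0.0698), with quantile normalisation (0.72, adjusted p = 0.0567) and without a VCN array (0.41, adjusted p up to 0.0951) or an LSO array (0.80, adjusted p up to 0.137). Of 7 microglia markers 4 rose, with a summed level of 11.16 to 11.69 at P3 and 11.83 to 12.14 at P14. Their part in the Tyrobp rise was not tested.

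Genes of the collapsin response mediator proteins, which carry the semaphorin 3A signal to microtubules, fell in 4 of 5 cases. The differences were -2.31 ± 0.15 for Dpysl5, -1.79 ± 0.13 for Crmp1, -1.67 ± 0.08 for Dpysl3 and -0.91 ± 0.08 for Dpysl4, but for Dpysl2 -0.03 ± 0.06 (adjusted p = 0.723). L1cam, the adhesion molecule that pairs with neuropilin 1, fell by 1.38 ± 0.11. The 6 markers of immature neurons noted above fell with them.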

How the data were processed

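The data were 1 table of 45101 probe sets on 6 arrays. The authors deposited log2 expression values that they made with RMA, per the submitters' processing notes; for the RMA version, scan dates and batches the sources used here give nothing, so no batch was tested. Probe sets were named through the platform annotation, where 34945 named 1 gene. The brightest set on average stood for a gene. Sets marked for possible cross-binding (names ending in _x_at) were passed over where another existed, which touched Sema3f, Sema4a and Sema4f. A gene was tested if its mean reached 5.57 log2 units, the 40th percentile over probe sets, which gave 12958 genes.

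The model (limma 3.58.1, R 4.3.3) had additive terms for age and for nucleus, with an intensity trend, two-sided tests and Benjamini-Hochberg adjustment over all tested genes at a threshold of 0.05. The residual degrees of freedom were 2, and the prior added 3.95. Arrays were left out 1 at a time, and other filters, floors, scalings and probe set rules were tried. The number of arrays limits the precision. Unspiked control sets reached 4.42. Values on every array are printed for members past a test and for those spanning at least 1.5 units, with further members added after their values were seen. Of the pathway list the 4 largest changes in each direction are named, with Dpysl2 and Dpysl4 added afterwards. A summed level is the log2 of the summed linear values of a marker list. Start regions came from a RefSeq table. The members, lists and tests were chosen with earlier results of these data known.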

Additional observations from a re-analysis of the deposited data

Results flagged for a closer look

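Nrp2 stands out because, by the probe set that represents it, its level moved in opposite directions in different nuclei. P14 minus P3 came to 1.33 for VCN and 0.68 for MNTB, but to -1.15 for LSO. Of its 3 probe sets above the filter, 1 did not show this. That set was lower at P14 in all 3 nuclei, with -0.18 in VCN, -1.52 in LSO and -0.28 in MNTB. Each value is a difference of 2 single arrays. Opposite changes of at least 0.5 log2 units in 2 nuclei were found in 0.664% of the 12958 tested genes. In the limma test of the age change in 1 nucleus against the mean of the others, Nrp2 did not pass for LSO (-2.15, adjusted p = 0.999), VCN (1.57, adjusted p = 0.498) or MNTB (0.59, adjusted p = 1.0). The error of that test rests on how far the other nuclei disagree, moderated by a spread fitted over all tested genes. Without an LSO array the age difference of Nrp2 was 1.005 and passed the limma age test (adjusted p up to 0.024). In that fit it rests on VCN and MNTB alone.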

How the results depend on the processing

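Of 29 tested members, 16 kept their side of the threshold for age in all alternatives run, 11 of them with their direction too. The age difference of 6 changed sign, and 0 of the 6 had passed. With the median over probe sets it was -0.12 for Nrp2, 0.24 for Sema3b, 0.042 for Sema4f, -0.12 for Sema6c and -0.040 for Sema6d. Sema4f was also at 0.089 with cross-binding sets kept and at 0.016 with arrays centred on their median. With 1 array left out, the range was -0.23 to 0.20 for Nrp1, -0.24 to 1.005 for Nrp2, -0.51 to 0.048 for Sema3b, -0.15 to 0.27 for Sema4f, -0.025 to 0.098 for Sema6c and -0.056 to 0.024 for Dpysl2. The number of members past the age test was 16, and 14 to 17 with another filter, floor, scaling, probe set rule or variance prior. Without nucleus in the model it was 15. With 1 array left out it ranged from 9 (either MNTB array) to 16, for ligands from 5 to 11. Calls over all 12958 genes dropped as well, from 5317 to between 3142 and 4710, and were fewest without an MNTB array. For MNTB minus LSO the range for members was 0 to 1, for the ligands too. For MNTB minus VCN it was 0 to 2, for ligands 0 to 2 and for receptors 0 to 1. For VCN minus LSO it was 0 to 2, for ligands 0 to 2. Such fits have fewer samples. Leaving out either array of a nucleus gives the same age difference. With nucleus as the block in the model, the age test compared P14 with P3 within each nucleus. The labels give no replicate numbers, so no other pairing was used. The test of 1 nucleus against the others was added after seeing the data.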
